A study of Homo sapiens with 148 samples.

Results

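The nuclear genes of oxidative phosphorylation were followed through the differentiation of human pluripotent cells into pancreatic endocrine organoids. Members were the gene names of complexes I to V, taken by their prefixes (NDUFA without the assembly factors NDUFAF, NDUFB, NDUFC, NDUFS, NDUFV, the exact names SDHA to SDHD, UQCR, COX4 to COX8 and ATP5), that reached 10 TPM (a level scaled to transcript length and to a fixed total per column) in at least 1 stage, with names that end as pseudogenes left out. The rule took 91 names, of which 78 reached 10 TPM, out of 49085 names in the table. Of the 78 members, 38 belonged by name to complex I, 4 to complex II, 8 to complex III, 11 to complex IV and 17 to complex V. NDUFA4 was counted with complex I by its name, although it has since been assigned to complex IV. The members ATP5S, ATP5SL and COX7A2L (a factor for assembling respiratory supercomplexes) are not subunits, and the other 75 are. The members were thus chosen by their TPM, so the floor itself is no finding: just inside it lay ATP5S with a highest stage mean of 10.7 TPM, SDHC with 18.9 and NDUFA9 with 26.5, and just outside it NDUFA6-AS1 with 9.67, ATP5J2-PTCD1 with 9.55 and UQCRHL with 8.97. Because 76 of the 78 members were at 10 TPM or more in every stage, with ATP5S and SDHC as the exceptions, the floor selected few of them for a single high stage.

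The RNA-seq samples numbered 12, 2 per stage, and all came from WT H9 cells, an established human embryonic stem cell line. The hESCs were undifferentiated, and every other stage received the pancreatic differentiation protocol: DE (definitive endoderm, day 4, after Activin A and CHIR99021), PGT (primitive gut tube, day 7, after KGF), PP (pancreatic progenitor, day 14, after KGF, Sant1, RA, LDN193189 and PdBU), and SC-β organoids (stem cell-derived β cell stage, day 35, after XXI, betacellulin, Alk5i II, T3, Sant1 and RA). A further stage named PH, also differentiated in vitro from the same line, is not defined in the sources used here, and neither its day nor its agents are known. A single line limits the series as a model, and each organoid or culture is a mixture of cells, so that fewer cells of a type and less RNA per cell cannot be told apart. The deposited value is the authors' mean of the replicates of a stage, so no SD, interval or p-value can be given, every difference is a description, and differences smaller than those between unseen replicates cannot be recognized.

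Oxidative phosphorylation passes electrons from NADH through complex I, or from succinate through complex II, to ubiquinone, then through complex III and cytochrome c to complex IV, which reduces oxygen. Complexes I, III and IV pump protons across the inner mitochondrial membrane, and complex V, the ATP synthase, uses the returning protons to make ATP. Most subunits are encoded in the nucleus and imported, while a small core of complexes I, III, IV and V is encoded in the mitochondrial genome. Pancreatic β cells couple this pathway to insulin secretion through the ATP they make from glucose, whereas pluripotent stem cells are known for a high rate of glycolysis.

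The stage labels were checked against a list of 9 defining genes, and not all of them marked a single stage. POU5F1, a pluripotency factor, was at 1449 TPM in hESCs and 0.377 in SC-β organoids, and SOX17, an endoderm factor, was highest in DE at 96.1 TPM. PDX1, the pancreatic progenitor factor, was at 3.17 TPM in PP and 0.0173 in PH, so PH did not carry the defining marker of PP. INS (insulin) reached 298 TPM and GCG (glucagon) 2793 TPM in SC-β organoids. NANOG was highest in hESCs at 44.6 TPM. SOX2 was at 133 TPM in hESCs and 1.7 in PGT, but at 68.2 in PP, 109 in PH and 50.9 in SC-β organoids. FOXA2 was highest in PGT at 48.7 TPM and was at 1.17 in PH. NKX6-1 was at 2.204 TPM in PP and 5.37 in SC-β organoids. A few abundant structural RNAs, such as RN7SK of the 7SK particle and the signal recognition particle RNAs, took between 31.8% of all TPM in DE and 50.9% in PH, and since TPM values share a fixed total, this moves every other gene. The median log2 ratio to hESCs over the 12849 names at 10 TPM or more in a stage was 0.39 (DE), 0.26 (PGT), 0.22 (PP), 0.02 (PH) and 0.47 (SC-β organoids), and the members are therefore set beside these medians throughout.

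The summed level of the 78 members was highest in hESCs and lowest in PH. It was 9507 TPM in hESCs, then 6961 (DE), 6339 (PGT), 6160 (PP), 4175 (PH) and 5693 (SC-β organoids). As a share of the TPM outside the structural RNAs, the members took 1.56% in hESCs, then 1.02% (DE), 1.005% (PGT), 1.07% (PP), 0.8497% (PH) and 0.861% (SC-β organoids). On this second scale PH and SC-β organoids were nearly level, and both lay below the other stages. The median level of a member was 81.2 TPM in hESCs and between 47.8 (PH) and 62.9 (DE) in the later stages. Even at their lowest, the members were abundant transcripts: their median percentile among the 12849 names was 90.8 in hESCs and 84.5 to 87.5 in the other stages.

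**Figure D1:**
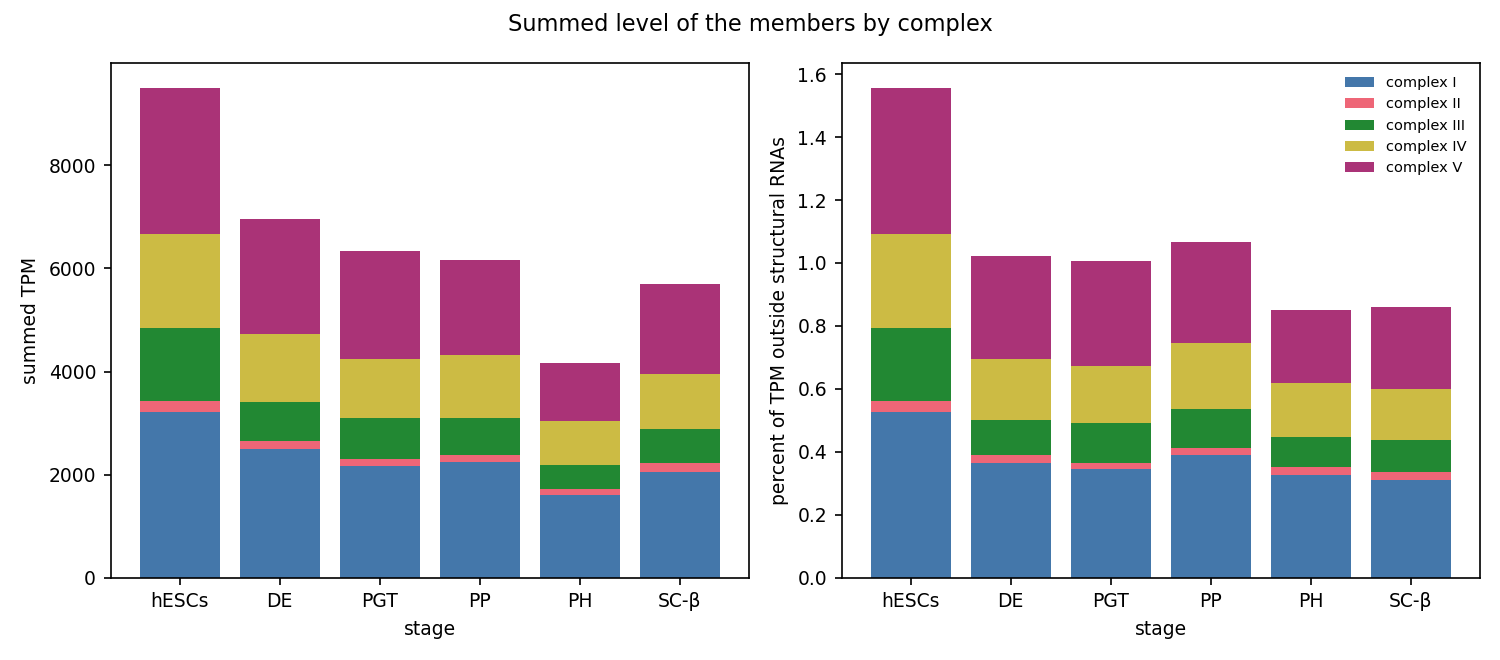
Summed TPM of the members by complex in the 6 stages (left, stacked bars) and the same sums as a percent of the TPM outside the structural RNAs (right). The bar of hESCs, 9507 TPM or 1.56%, is the tallest on both scales, PH is the lowest on the left at 4175 TPM, and PH and SC-β organoids are nearly level on the right at 0.8497% and 0.861%.

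Among the single members, 54 had their highest level in hESCs, then 8 (DE), 7 (PGT), 1 (PP), 1 (PH) and 7 (SC-β organoids). Over all names at the floor, 18.2% were highest in hESCs and 28.1% in SC-β organoids. The lowest level was in PH for 56 members, in PGT and PP for 6 each, in DE for 5, in SC-β organoids for 4 and in hESCs for 1. PH was also the lowest stage for 38.1% of all names, and hESCs for 38.7%. When each stage was rescaled by its median ratio over 13938 genes, the number of members highest in hESCs was 70, and the lowest stage was SC-β organoids for 26 and PH for 25, so the place of PH as the sole low stage depends on the scale, while most members were highest in hESCs on both scales. The rescaled sum of the members was 11503 in hESCs, 4964 in PH and 4798 in SC-β organoids. The 54 members highest in hESCs were by definition lower in all of the 5 later stages. Only 3 of them, UQCRH, ATP5G1 and NDUFAB1, were at least 2-fold lower in every one, a share that over all names was 2.79%.

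A log2 ratio here is that of the level plus 1 TPM in a stage over the same in hESCs. In DE, 64 of 78 members were lower than in hESCs, beside 29.9% of all names. The members' median log2 ratio was -0.36, 0.75 below the median of all names. At least 2-fold lower were 8 members (10.3%), beside 5.95% of all names, and at least 1.5-fold lower were 20, beside 11.4%. No member was 2-fold higher, beside 23.9% of all names, and 1, SDHC, was 1.5-fold higher, beside 40.6%. All names include any that reached the floor in a single stage, while 76 of the 78 members were at it in every stage. The shares of all names that were higher, here and in the later stages, may therefore be raised by that selection. They were not computed for the 6212 names at the floor in every stage. Those names had lower medians, 0.26 (DE), 0.15 (PGT), 0.06 (PP), -0.21 (PH) and 0.19 (SC-β organoids), still above the members' medians.

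PGT and PP resembled DE. In PGT, 67 members were lower than in hESCs, beside 38.2% of all names, with a median log2 ratio of -0.47. In PP 75 were lower, beside 39.8%, with a median of -0.48. At least 2-fold lower were 9 members in PGT (11.5%), beside 10.2% of all names, and 6 in PP (7.69%), beside 9.39%, so as deposited neither share stood clear of the background. At the 1.5-fold threshold the counts were 32 in PGT, beside 17.7%, and 30 in PP, beside 17.5%. No member was 2-fold higher in PGT, beside 22.2%, or in PP, beside 19.1%. At 1.5-fold none was higher in PGT, beside 36.2%, and ATP5S alone was higher in PP, beside 33.2%.

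PH had the lowest values. There 74 of 78 members were below hESCs, beside 49.4% of all names, and the members' median log2 ratio was -0.99. At least 2-fold lower were 37 members (47.4%), beside 22% of all names, and 55 were 1.5-fold lower, beside 32.2%. None was 2-fold higher, beside 23.1%, or 1.5-fold higher, beside 32.9%. Of the 37 members, 22 were 2-fold below hESCs in PH and in no other stage, beside 10.3% of all names. Of the 44 members with transcripts under 1000 bases, 23 were 2-fold below hESCs in PH, beside 41.3% of other names of that length. When the totals were recomputed without the structural RNAs, 21 members were past 2-fold in PH and the median log2 ratio was -0.69, beside 16.9% of all names past 2-fold. The difference between the medians of the members and of all names, -1.004 in PH, moved by less than 0.2 under that change. The 4 members above hESCs in PH were ATP5S, COX7A2L, NDUFA10 and SDHC.

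In SC-β organoids 69 members were below hESCs, beside 33.6% of all names. The members' median log2 ratio was -0.51, while the median of all names stood 0.47 above hESCs. At least 2-fold lower were 12 members (15.4%), beside 9.07% of all names, and 36 were 1.5-fold lower, beside 16.3%. After median-ratio rescaling 43 members were 2-fold lower in SC-β organoids, beside 18.1% of all names on that scale, so the count there shifted most with the scale. The rescaled counts in the other stages were 27 in DE (beside 12.2%), 28 in PGT (beside 15.4%), 14 in PP (beside 13.5%) and 41 in PH (beside 22.9%). ATP5S was the single member at least 2-fold higher, beside 32.7% of all names, but its level in this stage is what put it over the 10 TPM floor, so that it had to be high there, and at 1.5-fold ATP5G2 and NDUFA10 joined it, beside 46.1%. The members above hESCs in SC-β organoids were 9 as deposited (ATP5E, ATP5G2, ATP5S, NDUFA10, NDUFA12, NDUFS3, NDUFV1, SDHA and SDHC), and 3 after rescaling (ATP5G2, ATP5S and NDUFA10).

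**Figure D2:**
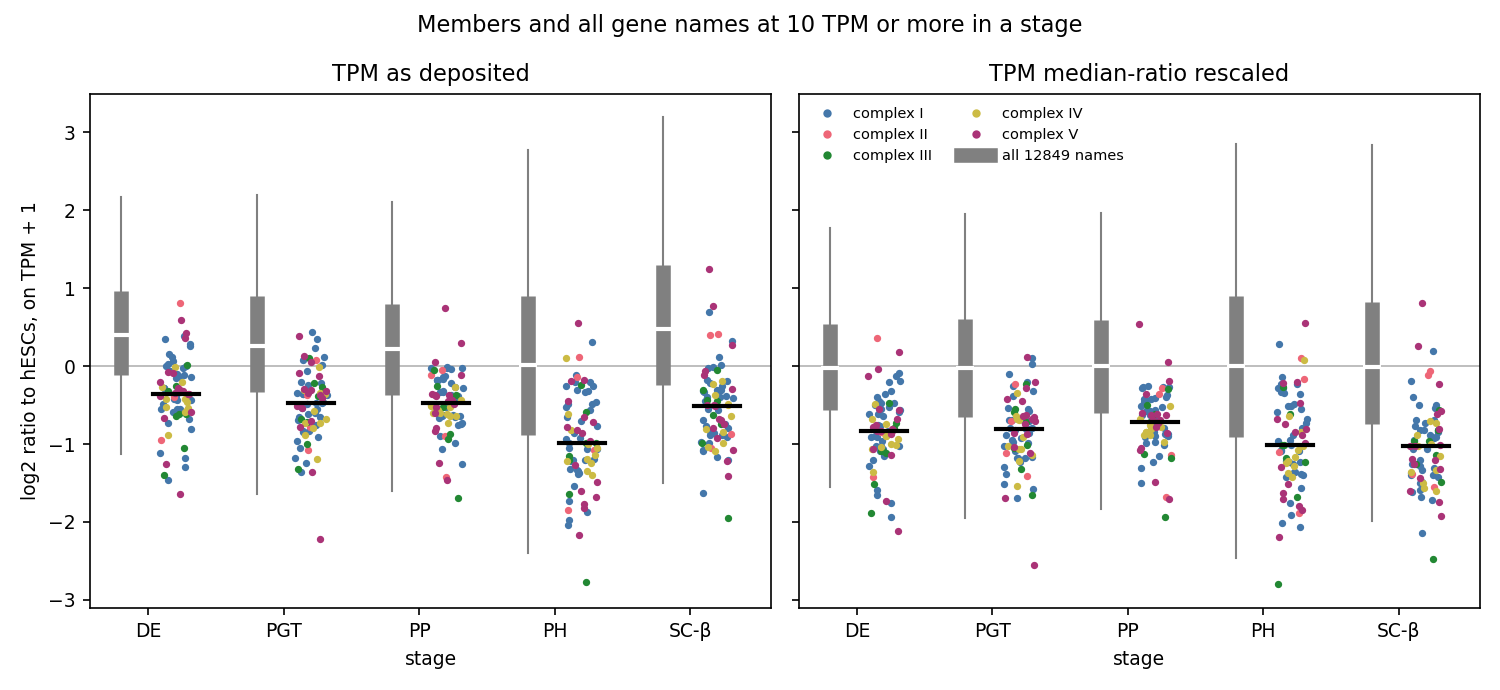
Log2 ratio to hESCs of the 78 members (points, colored by complex; black line, their median) beside all 12849 names at 10 TPM or more in a stage (grey bar, 25th to 75th percentile; thin line, 5th to 95th percentile; white mark, median), as deposited (left) and after median-ratio rescaling (right). In each stage the members' median lies below that of all names, and as deposited (left) the difference runs from 0.70 in PP to 1.004 in PH.

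From DE to PGT their median log2 ratio was -0.12 (all names -0.13), with 0 members 2-fold higher (beside 5.19%) and 0 lower (beside 9.53%). From PGT to PP it was 0.04 (all names -0.08), with 0 members 2-fold higher (beside 6.87%) and 0 lower (beside 7.11%). Set against PP, the median was -0.50 in PH (all names -0.21), where no member was 2-fold higher (beside 8.8%) and 6 were lower (7.69%, beside 14.6% of all names): ATP5J, ATP5J2, NDUFC1, NDUFS5, NDUFS6 and UQCRH. For SC-β organoids against PP it was -0.09 (all names 0.25), with 0 members 2-fold higher (beside 13.4%) and 0 lower (beside 2.31%). The difference between the members' and all names' medians relative to hESCs was thus already -0.75 in DE at day 4, beside -0.73 (PGT), -0.70 (PP) and -0.98 (SC-β organoids). The order of the members by level was similar throughout: Spearman's rho across the 78 genes between pairs of stages ran from 0.860 (hESCs and PH) to 0.956 (PGT and PP), across genes that are not independent replicates.

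**Figure D3:**
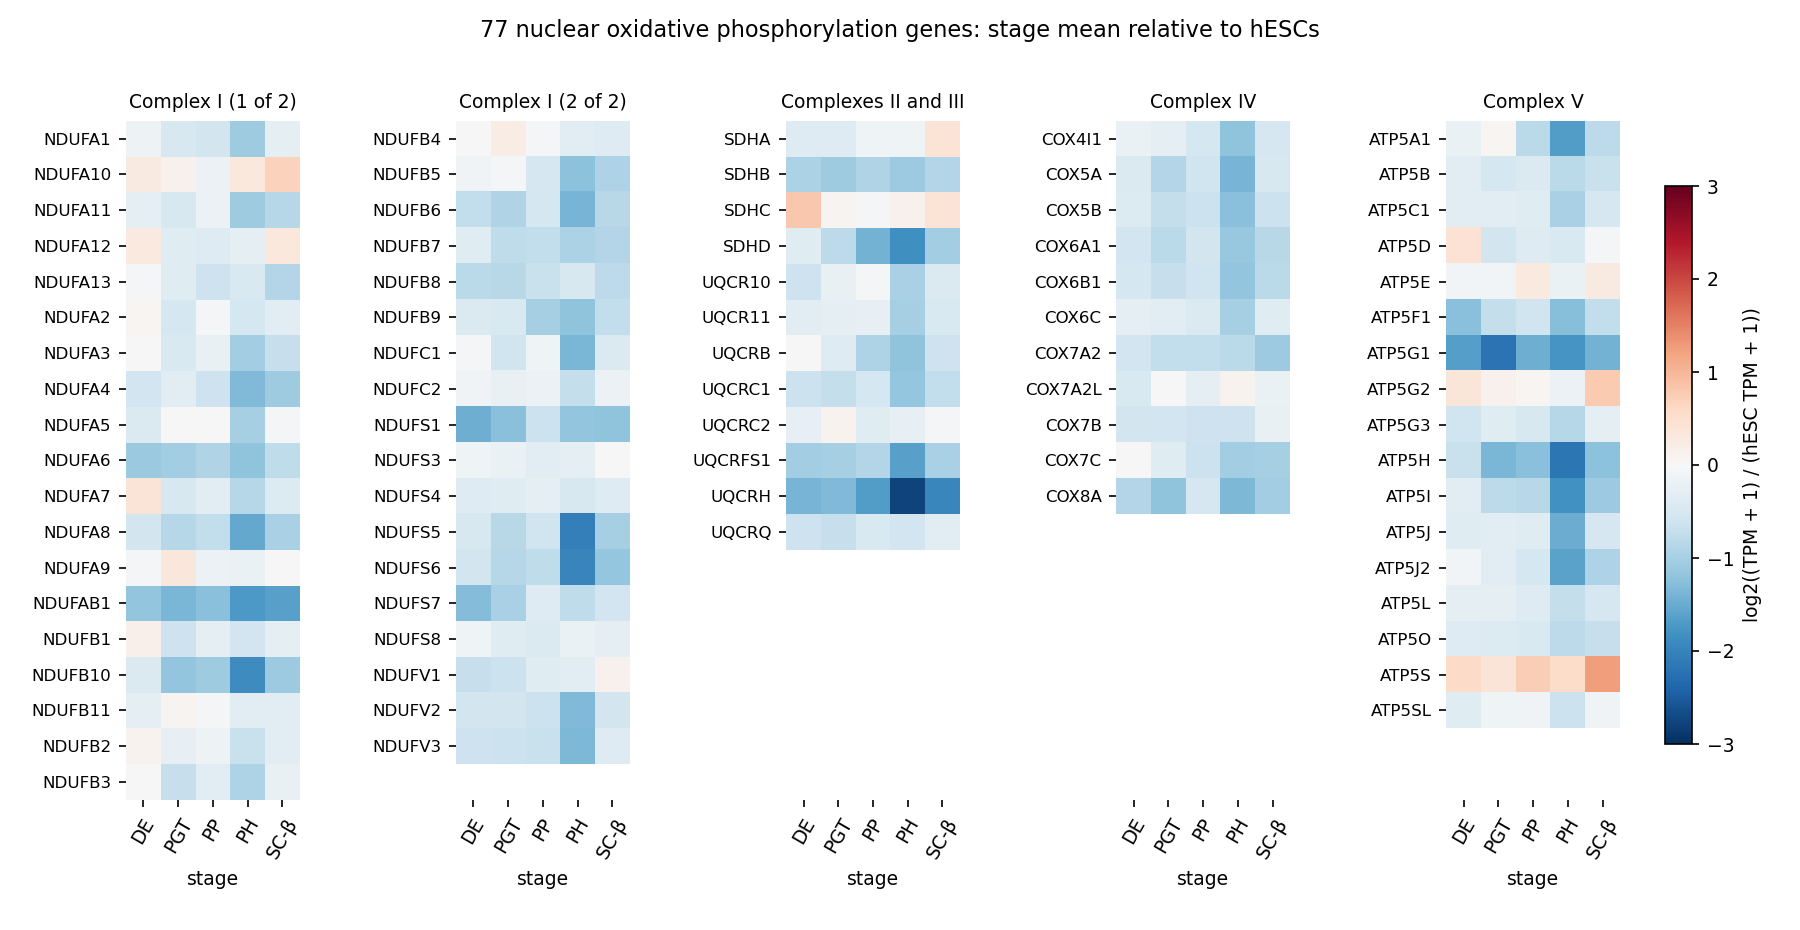
Log2 ratio to hESCs, on TPM + 1, of the members (rows, by complex; 1 is not shown) in 5 stages (columns); blue is lower and red higher than in hESCs. UQCRH in PH is the darkest blue cell at -2.77, the column of PH is the bluest in most rows, and ATP5S is red in every stage, up to 1.25 in SC-β organoids.

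Complex I oxidizes NADH and is the largest of the complexes. Its 38 members had a median log2 ratio to hESCs of -0.28 (DE), -0.48 (PGT), -0.38 (PP), -0.93 (PH) and -0.43 (SC-β organoids), and 17 of them were 2-fold lower in PH, beside 22% of all names. NDUFS5, a small accessory subunit at chr1:39026318-39034636 (hg38) and the most abundant of the group, was at 384 TPM in hESCs, then 274 (DE), 215 (PGT), 254 (PP), 92.6 (PH) and 193 (SC-β organoids). PH stood alone for this gene, more than 2-fold below the next lowest stage. NDUFS6, an accessory subunit at chr5:1801407-1816048, was at 84.3, 57.4, 46.5, 49.4, 20.7 and 37.1 TPM in the same order of stages. NDUFB10, at chr16:1959538-1961975, was at 118, 87.9, 51.6, 56.1, 31.5 and 54.9 TPM, and was thus 2-fold below hESCs in every stage after DE. NDUFAB1, the mitochondrial acyl carrier protein that is also a complex I subunit, was at 175 TPM in hESCs and at 76.6, 67.3, 72.6, 52.2 and 55.96 in the later stages. Its log2 ratio to hESCs was already -1.18 in DE, and lower still in PH (-1.73) and SC-β organoids (-1.63).

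The catalytic subunits of complex I did not move as a block. NDUFS1, which carries iron-sulfur clusters, was at 69.2 TPM in hESCs, then 24.5 (DE), 28.6 (PGT), 43.9 (PP), 29.8 (PH) and 29.3 (SC-β organoids). NDUFS7, another iron-sulfur subunit, was at 34.9, 13.6, 17.4, 26.4, 20.1 and 23.3 TPM. Both had their lowest level in DE, not in PH, with log2 ratios of -1.46 and -1.30 there. NDUFV1, the subunit that binds NADH and FMN, was at 85.1 TPM in hESCs, then 52.6 (DE), 53.6 (PGT), 65.6 (PP), 68.3 (PH) and 92.7 (SC-β organoids). Its partner NDUFV2 was at 167, 114, 114, 107, 66.1 and 114 TPM, so that the level of NDUFV1 came closer to that of NDUFV2 in PH and SC-β organoids. NDUFS3 (35.2 to 45.0 TPM) and NDUFS8 (45.8 to 62.1 TPM) varied least of the catalytic subunits of complex I, with a range over the 6 stages of 0.35 and 0.43 on the log2 scale. The accessory subunit NDUFA10 went the other way from the group: it was at 21.6 TPM in hESCs, 19.1 in PP, 26.9 in PH and 35.6 in SC-β organoids.

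The remaining members of complex I that were 2-fold lower somewhere were mostly accessory subunits, which surround the catalytic core. NDUFA6 was 2-fold lower in DE, PGT and PH, with 83.4 TPM in hESCs and 35.6 to 48.5 elsewhere. NDUFA4 was at 133 TPM in hESCs, 52.1 in PH and 62.6 in SC-β organoids, 2-fold lower in these last stages. NDUFA1, NDUFA3, NDUFA8, NDUFA11, NDUFB5, NDUFB6, NDUFB9, NDUFC1, NDUFV2 and NDUFV3 passed 2-fold in PH alone, with log2 ratios there between -1.05 and -1.54. The paralogue of NDUFA4, NDUFA4L2, which is known as a target of the hypoxia response, stayed under the 10 TPM floor. It was at 1.15 TPM in hESCs, then 1.45 (DE), 0.605 (PGT), 1.54 (PP), 7.39 (PH) and 2.55 (SC-β organoids), and made up 12.4% of the summed TPM of the pair in PH and 0.575% to 3.92% elsewhere.

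Complex II, succinate dehydrogenase, is the one complex whose subunits are all nuclear, and its 4 members followed different courses. SDHA, the flavoprotein that oxidizes succinate, was at 53.3 TPM in hESCs, then 40.3 (DE), 40.8 (PGT), 49.0 (PP), 48.3 (PH) and 70.8 (SC-β organoids). SDHB, the iron-sulfur subunit, was at 90.0, 46.2, 42.3, 48.0, 42.1 and 48.8 TPM. SDHC and SDHD anchor the complex in the membrane, and SDHC was at 10.3, 18.9, 10.99, 9.94, 11.3 and 14.1 TPM. SDHD was at 75.9, 58.7, 43.9, 27.6, 20.3 and 36.3 TPM. SDHB was thus lower by a nearly constant amount from DE onward, SDHD was lower in each of DE, PGT, PP and PH than in the stage listed before it, and SDHA and SDHC were highest in SC-β organoids and DE. The spread between the highest and lowest of the 4 genes was 8.72-fold in hESCs and 3.10-fold in DE. Reads of SDHA can also fit its pseudogene copies, of which SDHAP1 was at 5.01 TPM in hESCs and 21.8 in SC-β organoids and SDHAP3 at 10.9 and 18.3, so the split between them is uncertain.

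Complex III, the cytochrome bc1 complex, took 14.8% of the members' summed TPM in hESCs and 10.9% to 12.6% in the later stages, and UQCRH was its most abundant gene in every stage. UQCRH, the hinge subunit that helps cytochrome c dock, lies at chr1:46303698-46316776 and had the highest level of any member in hESCs. It was at 774 TPM in hESCs, then 292 (DE), 310 (PGT), 240 (PP), 112 (PH) and 199 (SC-β organoids). Its log2 ratio to hESCs, -1.40 in DE and -2.77 in PH, was the lowest of the members in PP, PH and SC-β organoids. UQCRHL, a copy of UQCRH on the same chromosome, was under the floor at 8.97 TPM in hESCs and 2.24 to 4.21 in the other stages. The coding sequences of the pair are identical at 269 of 273 bases, with an unbroken identical run of 157 bases, longer than a read, so the division of reads between them is uncertain, although UQCRH held 98.0% to 98.9% of their sum in each stage.

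UQCRFS1, the Rieske iron-sulfur protein, was at 44.6 TPM in hESCs, then 21.1 (DE), 21.9 (PGT), 23.8 (PP), 13.6 (PH) and 22.1 (SC-β organoids). The core proteins UQCRC1 and UQCRC2 differed from each other. UQCRC1 was at 137, 87.8, 82.96, 94.7, 61.2 and 81.9 TPM, and UQCRC2 was at 112, 93.8, 120, 86.4, 93.9 and 108 TPM. UQCRC1 was the more abundant of the core pair in hESCs and PP, and UQCRC2 in the other 4 stages. UQCRB was level between hESCs (90.5 TPM) and DE (91.0) and lowest in PH (38.8), while UQCRQ, UQCR10 and UQCR11 did not pass 2-fold in any stage.

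Complex IV, cytochrome c oxidase, reduces oxygen to water, and all of its 11 members except COX7A2L were lower than in hESCs in every later stage. Its median log2 ratio was -0.46 (DE), -0.69 (PGT), -0.60 (PP), -1.13 (PH) and -0.64 (SC-β organoids), and 7 members were 2-fold lower in PH, beside 22% of all names. COX6A1 was at 355 TPM in hESCs, then 237 (DE), 204 (PGT), 241 (PP), 161 (PH) and 198 (SC-β organoids). COX8A was at 329, 178, 143, 231, 129 and 159 TPM, and was 2-fold below hESCs in PGT, PH and SC-β organoids but not in PP. COX5A was at 84.3, 62.5, 45.2, 55.1, 31.4 and 59.7 TPM. COX5B was at 157, 117, 94.7, 101, 65.6 and 100.4 TPM. The levels of all of these were highest in hESCs and lowest in PH.

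COX4I1, the regulatory subunit, was at 135 TPM in hESCs, then 117 (DE), 109 (PGT), 93.1 (PP), 57.5 (PH) and 94.9 (SC-β organoids). Several complex IV subunits have tissue-specific paralogues. The ubiquitous forms COX4I1, COX6B1, COX7A2 and COX8A held nearly all of the summed TPM of their pairs in every stage. For COX6A1 and COX7B no paralogue was found among the names, so no share can be given. COX4I2, the form known from lung and low oxygen, was listed at 0 in every stage but hESCs, where it was at 0.0576 TPM. COX7A1, the heart and muscle form, was at 0.578 to 1.84 TPM and held 0.807% of the summed TPM of COX7A1 and COX7A2 in hESCs, 2.75% in DE and 3.41% in SC-β organoids. COX6B2 and COX8C, known from testis, were at most at 1.86 and 0.488 TPM. COX7A2L differed from the subunits, with its highest level in PH at 56.2 TPM and its lowest in DE at 37.6.

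Complex V, the ATP synthase, had median log2 ratios of -0.32 (DE), -0.35 (PGT), -0.44 (PP), -0.86 (PH) and -0.51 (SC-β organoids). ATP5A1 (now ATP5F1A) encodes the α subunit and ATP5B the catalytic β subunit of the F1 head. ATP5A1 was at 555 TPM in hESCs, then 483 (DE), 575 (PGT), 319 (PP), 172 (PH) and 319 (SC-β organoids). ATP5B was at 307, 248, 214, 226, 173 and 192 TPM. The α and β genes, whose proteins are present in equal number in the head, were thus about equal in PH and furthest apart in PGT. ATP5B moved almost exactly with the members as a group, with a range relative to their median of 0.22 on the log2 scale over the 6 stages, the smallest of the 78.

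Among the peripheral stalk and membrane subunits, ATP5H (now ATP5PD), a stalk subunit at chr17:75038863-75046985, was at 324 TPM in hESCs, then 204 (DE), 126 (PGT), 136 (PP), 71.4 (PH) and 138 (SC-β organoids). ATP5I (now ATP5ME), a membrane subunit at the dimer interface, was at 320, 251, 186, 179, 89.7 and 151 TPM. ATP5J2 (now ATP5MF) was at 329, 310, 258, 227, 107 and 173 TPM. For these genes each later stage was below hESCs and PH was the lowest. ATP5F1 (now ATP5PB) was 2-fold lower in DE (82.1 TPM) and PH (81.1) against 198 in hESCs, and ATP5J only in PH, at 43.6 TPM against 124. ATP5E, the ε subunit of the central stalk, was at 31.3 to 44.2 TPM and highest in PP, and ATP5D, the δ subunit, was highest in DE at 39.9 TPM and lowest in PGT at 19.8. Reads of ATP5E may also fit the pseudogene copy ATP5EP2, at 14.4 to 24.1 TPM, as those of COX7C may fit COX7CP1, at 13.1 to 34.6 TPM. Other pseudogene names that reached 10 TPM in a stage were ATP5HP4 (1.12 TPM in hESCs and 12.8 in SC-β organoids), NDUFA9P1 (0.743 and 11.5) and NDUFB1P1 (5.46 and 7.04, and 10.02 in DE). The sequences of pseudogene copies, those of SDHA included, were not compared with those of the members. ATP5S was the member with the highest log2 ratio in SC-β organoids, 1.25, at a low level throughout, from 3.92 TPM in hESCs to 10.7.

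The c ring of the ATP synthase is built of copies of a single protein, subunit c, which 3 nuclear genes encode with different import signals. ATP5G1 (now ATP5MC1) lies at chr17:48892765-48895871, ATP5G2 (ATP5MC2) at chr12:53632726-53677408 and ATP5G3 (ATP5MC3) at chr2:175176258-175181710. Their last 75 codons, which encode the mature protein, give the same 75 residues in each gene. They are shown because the 3 genes make the same product from different transcripts. The sequences are 225 bases of the coding strand before the stop codon, taken from GENCODE transcripts, with capitals at the bases that differ from ATP5G1, 25 in ATP5G2 and 42 in ATP5G3.
ATP5G1: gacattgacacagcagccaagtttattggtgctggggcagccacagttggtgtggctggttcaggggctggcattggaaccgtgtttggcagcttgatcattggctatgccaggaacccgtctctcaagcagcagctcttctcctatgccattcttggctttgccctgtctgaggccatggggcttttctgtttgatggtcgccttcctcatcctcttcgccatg
ATP5G2: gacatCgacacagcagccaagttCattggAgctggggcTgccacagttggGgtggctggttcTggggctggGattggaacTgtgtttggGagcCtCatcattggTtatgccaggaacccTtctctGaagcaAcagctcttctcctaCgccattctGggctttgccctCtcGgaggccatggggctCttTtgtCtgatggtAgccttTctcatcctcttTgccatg
ATP5G3: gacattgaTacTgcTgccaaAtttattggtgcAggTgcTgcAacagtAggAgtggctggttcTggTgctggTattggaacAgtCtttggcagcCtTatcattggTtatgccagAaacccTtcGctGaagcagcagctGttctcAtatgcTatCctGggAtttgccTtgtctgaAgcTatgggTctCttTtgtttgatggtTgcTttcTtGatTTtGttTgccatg
The longest run of identical bases between any pair of them is 17, shorter than a read, so a read within this stretch differs between the 3 genes. Pseudogene copies were not compared, and the assignment of reads was not checked.

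The 3 subunit c genes parted in their levels. ATP5G1 was at 99.1 TPM in hESCs, then 30.98 (DE), 20.6 (PGT), 35.4 (PP), 28.4 (PH) and 36.8 (SC-β organoids). ATP5G2 was at 65.8, 84.4, 71.9, 68.2, 58.0 and 113 TPM. ATP5G3 was at 45.2, 29.7, 34.7, 32.0, 24.5 and 36.6 TPM. ATP5G1 was the most abundant of them in hESCs, and ATP5G2 in every later stage. Within a stage these shares do not depend on the scale of the stage: ATP5G1 made up 47.2% of the summed TPM in hESCs and 16.2% to 26.1% in the later stages, and ATP5G2 31.3% in hESCs, 50.3% to 58.2% in DE, PGT, PP and PH, and 60.7% in SC-β organoids. The sum of the 3 genes was 210 TPM in hESCs, 111 in PH and 187 in SC-β organoids, so that the sum in SC-β organoids came closer to hESCs than ATP5G1 did.

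**Figure D4:**
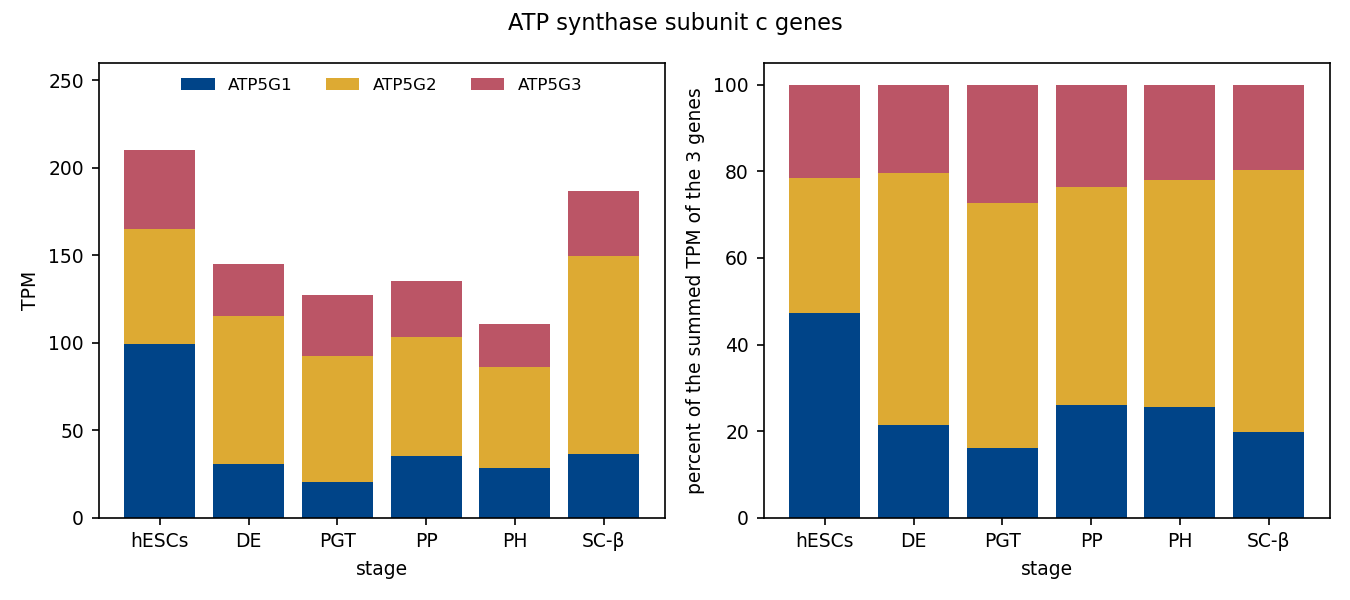
TPM of the subunit c genes ATP5G1, ATP5G2 and ATP5G3 in the 6 stages (left, stacked bars) and their shares of the sum (right, percent). ATP5G1 holds 47.2% in hESCs and at most 26.1% later, and ATP5G2 reaches 60.7% in SC-β organoids.

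Against the members as a group, the genes that moved most were UQCRH, ATP5S, ATP5G1, ATP5A1, ATP5H and ATP5G2. Relative to the members' median in each stage, UQCRH ran from 3.24 in hESCs to 1.22 in PH on the log2 scale, and ATP5G1 from 0.29 in hESCs to -1.38 in PGT. ATP5G2 ran from -0.30 in hESCs to 1.02 in SC-β organoids. A factor that scales a whole stage largely cancels in these values, though less so for low genes such as ATP5S because of the added 1 TPM.

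Promoters of the members were searched for letters known as binding motifs of factors that control respiratory genes: NRF1 (core GCATGCGC), ETS factors such as GABP (CCGGAAGT), YY1 (AAGATGGCG) and ERR (TCAAGGTCA), on both strands of windows that run from 250 bases before to 50 after a RefSeq start site (GRCh38.p14). A RefSeq window was found for 64 members, in 77 windows. The NRF1 core was present for 14 of the 64 genes, in 19.5% of their windows, compared with 3.05% of all 35116 windows and 4.61% of the windows of names at the floor. The ETS letters were present for 11 genes (14.3% of windows, compared with 4.14% and 7.43%), the YY1 letters for 9 (13.0%, compared with 1.75% and 3.50%), and the ERR letters for 1, SDHD (1.30%, compared with 0.353% and 0.164%). At least 1 of the 4 was present for 27 genes, in 37.7% of windows, compared with 8.69% and 14.5%. The NRF1 core overlaps itself on the opposite strand by 6 letters, so matches on both strands can mark a single place, as for SDHD, NDUFA8, NDUFB4 and ATP5C1. The letters were held both by members that were 2-fold lower in PH (SDHD, COX5B, COX8A, ATP5H, NDUFS6) and by members that were not (NDUFS4, NDUFB4, ATP5G2, UQCRQ).

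In 4 complexes, the upstream bases of the member with the widest range over stages are shown, among members with a match upstream of the gene and largely outside annotated untranslated regions. They run 5′ to 3′ on the gene's strand, end at or before the annotated start of the gene, and carry the matched letters in capitals. For NDUFA6 the sequence is chr22:42090885-42091022 (minus strand, NRF1 core), for SDHB chr1:17054033-17054282 (minus strand, NRF1 core), for UQCR11 chr19:1605474-1605712 (minus strand, ETS) and for COX8A chr11:63974370-63974619 (plus strand, ETS).
NDUFA6: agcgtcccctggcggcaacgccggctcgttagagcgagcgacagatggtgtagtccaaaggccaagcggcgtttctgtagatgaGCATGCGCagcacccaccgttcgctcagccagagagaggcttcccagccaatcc
SDHB: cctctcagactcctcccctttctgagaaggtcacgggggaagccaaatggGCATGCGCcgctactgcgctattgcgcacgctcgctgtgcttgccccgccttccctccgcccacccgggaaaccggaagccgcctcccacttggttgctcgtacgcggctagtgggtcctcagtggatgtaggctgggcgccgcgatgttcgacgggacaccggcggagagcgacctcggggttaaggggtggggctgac
UQCR11: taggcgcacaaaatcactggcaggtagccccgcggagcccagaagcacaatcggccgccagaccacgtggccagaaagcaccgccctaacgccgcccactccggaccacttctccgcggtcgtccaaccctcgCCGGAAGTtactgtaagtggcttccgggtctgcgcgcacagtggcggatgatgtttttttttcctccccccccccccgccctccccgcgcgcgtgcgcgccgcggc
COX8A: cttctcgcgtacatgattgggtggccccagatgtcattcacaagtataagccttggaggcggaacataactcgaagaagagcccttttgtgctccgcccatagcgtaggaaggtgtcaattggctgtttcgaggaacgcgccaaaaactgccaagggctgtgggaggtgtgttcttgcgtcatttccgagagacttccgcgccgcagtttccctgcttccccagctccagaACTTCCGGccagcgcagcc
A match of letters is a description of the sequence, and no binding was measured here.

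Of 16 regulators of mitochondrial biogenesis, 14 reached 10 TPM, and their median log2 ratio to hESCs was 0.39 (DE), 0.19 (PGT), -0.17 (PP), -0.44 (PH) and 0.28 (SC-β organoids). The medians of all names were 0.39, 0.26, 0.22, 0.02 and 0.47 in the same order. After median-ratio rescaling, the regulators' medians were below hESCs in every stage, at -0.08, -0.12, -0.41, -0.47 and -0.21. NRF1 was at 12.5 TPM in hESCs, 21.7 in DE and 23.4 in SC-β organoids. GABPA, a subunit of GABP, was at 16.7 TPM in hESCs, then 24.3 (DE), 19.6 (PGT), 19.5 (PP), 11.7 (PH) and 20.1 (SC-β organoids), and YY1 at 29.4, 41.3, 42.9, 40.9, 22.0 and 35.9 TPM. PPARGC1A, a coactivator of mitochondrial biogenesis, was at 3.12 TPM in hESCs, then 6.69 (DE), 3.51 (PGT), 1.63 (PP), 1.22 (PH) and 19.5 (SC-β organoids). TFAM, which packages and transcribes mitochondrial DNA, was at 41.4, 29.0, 27.8, 29.1, 14.8 and 24.9 TPM. TFAM was highest in hESCs and lowest in PH, as the members' sum was, and so were TFB2M, a mitochondrial transcription factor (16.4 and 7.19 TPM), POLRMT, the mitochondrial RNA polymerase (31.0004 and 18.9), and C10orf2, the mitochondrial helicase (15.7 and 5.58). None of the other listed regulators was both. TFB1M was highest in DE at 33.2 TPM, and POLG was lowest in hESCs (17.8) and highest in SC-β organoids (34.9). Over all names at the floor, 18.2% were highest in hESCs and 38.1% lowest in PH.

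The 13 mitochondrially encoded subunits, which join the nuclear ones in the same complexes, summed to 14480 TPM in hESCs, then 17115 (DE), 8394 (PGT), 10883 (PP), 3681 (PH) and 14534 (SC-β organoids). Their median log2 ratio to hESCs was 0.72 (DE), -0.52 (PGT), -0.37 (PP), -2.13 (PH) and 0.79 (SC-β organoids), and all 13 were at least 2-fold below hESCs in PH, beside 22% of all names. Nuclear and mitochondrially encoded sums were both lowest in PH, and stood apart on the deposited scale in DE and SC-β organoids, where the nuclear sum was below that of hESCs and the other was not. Whether the mitochondrially encoded sum lay below hESCs depends on the scale: after median-ratio rescaling it was 17519 in hESCs, 14819 in DE and 12249 in SC-β organoids. MT-CO1, MT-CO2 and MT-CO3 carried most of that sum, with 3343, 2568 and 6729 TPM as deposited in hESCs. The rescaled median log2 ratio of the 13 genes was 0.24 in DE and 0.27 in SC-β organoids, beside -0.83 and -1.02 for the members, so the medians stood apart on both scales. The ratio of the nuclear to the mitochondrially encoded sum does not depend on the scale of a stage. It was 0.657 in hESCs, then 0.407 (DE), 0.755 (PGT), 0.566 (PP), 1.13 (PH) and 0.392 (SC-β organoids).

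Other genes of energy metabolism are given by lists. Their medians stand beside those of all names, which were 0.39 (DE), 0.26 (PGT), 0.22 (PP), 0.02 (PH) and 0.47 (SC-β organoids). Of 47 assembly factors, which build the complexes without being part of them, 45 reached 10 TPM. Their median log2 ratio to hESCs was -0.01 (DE), -0.17 (PGT), -0.15 (PP), -0.62 (PH) and -0.07 (SC-β organoids), and 14 were 2-fold lower in PH, beside 22% of all names. They lay closer to hESCs than the subunits in each stage. After median-ratio rescaling, the assembly factors' medians were -0.47, -0.49, -0.38, -0.66 and -0.57 in the same order of stages. Among 13 genes for cytochrome c and other partners, CYCS, the electron carrier between complexes III and IV, was at 102 TPM in hESCs, then 41.1 (DE), 25.6 (PGT), 35.1 (PP), 24.0 (PH) and 36.5 (SC-β organoids), and CHCHD2 went the other way, from 15.998 TPM in hESCs to 137 in SC-β organoids. The median of the 14 genes of the TCA cycle was -0.20 (DE), -0.18 (PGT), -0.02 (PP), -0.37 (PH) and -0.02 (SC-β organoids). After rescaling it was -0.67, -0.51, -0.26, -0.39 and -0.53, so these genes were near hESCs only on the deposited scale. The 19 genes of glycolysis were further below hESCs, with medians as deposited of -0.56, -1.15, -1.11, -1.21 and -1.35 in the same order. Of these, 13 were 2-fold lower in SC-β organoids, beside 9.07% of all names. In hESCs, the glycolytic genes summed to 10443 TPM and the members to 9507, and in SC-β organoids to 4157 and 5693.

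Genes of the hypoxia response, of which 10 of 12 reached 10 TPM, had a median log2 ratio to hESCs of 0.41 (DE), 0.10 (PGT), -0.77 (PP), -0.04 (PH) and -0.39 (SC-β organoids). The medians of all names were 0.39, 0.26, 0.22, 0.02 and 0.47 in the same order. Against PP, however, the median of the hypoxia genes was 0.84 in PH (all names -0.21). BNIP3, a mitophagy receptor, was at 14.02 TPM in PP and 85.2 in PH, and KDM3A, a histone demethylase, at 26.1 and 73.1. These moved beside the low level of the members and the higher NDUFA4L2 share in PH, and their part in these was not tested. Of the muscle and mural cell lists, whose tissues carry the paralogues named above, 7 of 13 pericyte and smooth muscle markers reached 10 TPM in a stage, and summed to 387 TPM in hESCs, then 381 (DE), 108 (PGT), 97.3 (PP), 94.8 (PH) and 361 (SC-β organoids) over all 13. TAGLN carried most of the sum in hESCs and DE (277 and 251 TPM, and 117 in SC-β organoids), while PDGFRB was at 4.34 TPM in hESCs and 57.8 in SC-β organoids and ACTA2 at 1.59 and 73.1. MCAM was at 34.1 TPM in hESCs and 8.14 in SC-β organoids, and CNN1 at 29.0 and 12.6. The list thus did not move together: of the 7 markers at the floor, 3 were at least 2-fold above hESCs in SC-β organoids (beside 32.7% of all names) and 3 at least 2-fold below (beside 9.07%). The striated muscle list, of which 14 of 15 names were found and 6 reached 10 TPM, summed to 329 TPM in DE and 17.2 to 136 in the other stages, with MYL7 listed at 0 in PH, CKM in hESCs and MB in PP.

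Among the members, the relation of the values to transcript length differed between stages. Spearman's rho of the log2 ratio to hESCs with length was -0.08 (DE), 0.31 (PGT), 0.14 (PP), 0.21 (PH) and 0.33 (SC-β organoids). The members' canonical GENCODE transcripts had a median length of 830.5 bases, compared with 3235 for the 12057 names at the floor that could be matched. Among 44 members under 1000 bases the median log2 ratio to hESCs was -0.35 (DE), -0.54 (PGT), -0.52 (PP), -1.05 (PH) and -0.66 (SC-β organoids), and among 34 longer members it was -0.38, -0.36, -0.45, -0.91 and -0.41. The 1185 other names under 1000 bases had medians of 0, -0.15, -0.22, -0.66 and -0.18, and the 10794 other longer names 0.42, 0.30, 0.26, 0.08 and 0.51. Short names as a whole were therefore lower in PH and the members lay below them by 0.39 there. Members of both length classes were below other names of their own class in every stage, by 0.30 to 0.49 for the short and 0.66 to 0.99 for the long. The part of length in the members' values was not tested.

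**Figure D5:**
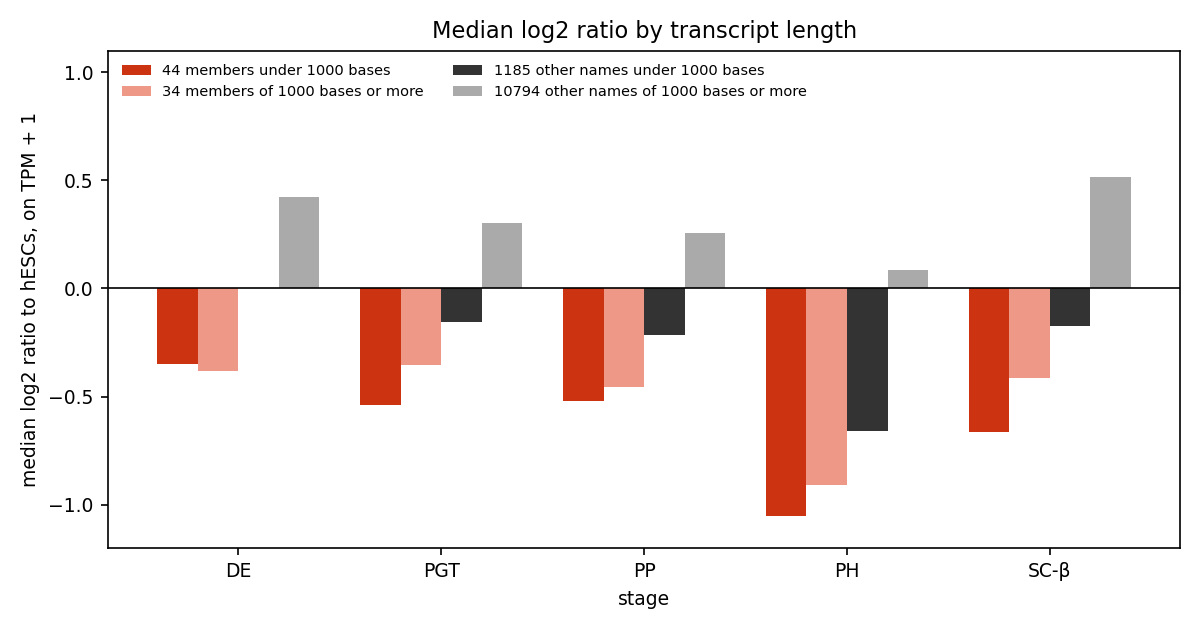
Median log2 ratio to hESCs, on TPM + 1, of members and of other names at 10 TPM or more in a stage, split at 1000 bases of canonical transcript. In each of the 5 stages the bars of the members lie below those of other names of the same length class, and in PH the 1185 other short names are at -0.66 beside -1.05 for the short members.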

How the data were processed

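For RNA-seq of H9 cells and their derivatives, the authors used HISAT2 2.2.0 for alignment (hg38) and StringTie 2.1.6 for quantification, and deposited mean TPM values, 1 column for each of 6 stages. The annotation is not given in the sources used here, and the methods name rRNA removal while the labels also name an mRNA kit. Per-replicate values and read counts were not analysed here. The study's reporting summary gives only a lower bound on the reads of a replicate and not each sample's depth, and no test, interval or detection limit was computed. The other assays among the 148 samples were not analysed here.

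The 50451 entries were summed under 49085 names. Ratios were log2((TPM + 1) / (TPM in the reference + 1)), counted at 2-fold and 1.5-fold over the 12849 names at 10 TPM or more in a stage. Older symbols were matched through RefSeq synonyms, and positions and lengths come from GENCODE on the same build. The genes named are, in each complex, those of highest mean or widest range, every member past 2-fold, catalytic subunits, paralogues, and the widest-ranging genes of each list; CYCS, CHCHD2, NRF1, TFAM, GABPA, YY1, TFB2M, POLRMT, C10orf2, TAGLN, PDGFRB, ACTA2, BNIP3 and KDM3A and the genes used for contrast were chosen after their values were seen. The members, lists and alternatives were chosen with earlier results of these data known. A member that enters the counts, medians and sums is not reported here by its own values. Calculations were tested on simulated data. Alternatives were a pseudocount of 0.1, median-ratio rescaling, totals without structural RNAs or without the 100 most abundant genes, other floors, subunits only, the highest entry of a repeated name, the preceding stage as reference (PP for PH, whose place in the order is not given), and, added after the data were seen, names at the floor in every stage and a split by transcript length. Python 3.11.15, numpy 2.4.6, pandas 2.3.3 and matplotlib 3.10.9 were used.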

Additional observations from a re-analysis of the deposited data

How the results depend on the processing

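No paired analysis was possible because the deposited values are means over the replicates, and leaving out a replicate could not be run for the same reason. Of 201 alternative values of the main counts and medians, 144 stayed within 1.5 times the count or 0.2 of the median, 57 moved, and with hESCs as reference 0 medians turned sign. A pseudocount of 0.1 TPM and the highest entry of a repeated name moved none. Rescaling gave medians of -0.83 (DE), -0.81 (PGT), -0.72 (PP) and -1.02 (SC-β organoids), 27, 28, 14 and 43 members 2-fold lower, and 0 higher in SC-β organoids. Removing the structural RNAs gave 21 members lower in PH with a median of -0.69, and removing the 100 most abundant genes 21 lower in PH, median -0.68, and 21 lower in SC-β organoids. A floor of 1 TPM or none gave 1 member 2-fold higher in DE, PGT and PP and 2 in PH and SC-β organoids. The difference from all names without a floor was -0.44 (DE), -0.45 (PGT), -0.47 (PP) and -0.72 (SC-β organoids), and -1.23 in SC-β organoids at 1 TPM. Subunits alone gave 0 higher in SC-β organoids. At 1.5-fold, 1 member was higher in both DE and PP and 3 in SC-β organoids, and 20, 32, 30 and 36 were lower in DE, PGT, PP and SC-β organoids. With the preceding stage as reference (PP for PH, whose place in the order is not given), 0 members were lower in PGT, PP and SC-β organoids and 6 in PH, 0 were higher in SC-β organoids, the medians were -0.12, 0.037, -0.50 and -0.088 in PGT, PP, PH and SC-β organoids, and the differences from all names 0.0061, 0.12, -0.29 and -0.33. Against names at 10 TPM in every stage, the difference was -0.78 in PH and -0.70 in SC-β organoids. Among transcripts under 1000 bases it was -0.35 (DE), -0.38 (PGT), -0.30 (PP), -0.39 (PH) and -0.49 (SC-β organoids). The causes were not tested. Without values of single replicates, small differences between stages cannot be told from the spread of the samples, and stage means without each sample's depth give no detection limit for low levels.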
